A study of Mus musculus with 12 samples.

Results

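The complement genes C3, C4b, Cfb, Cfd, C1ra, C1s1, Serping1, Masp1 and Cd55 were followed through all 4 treatment groups of a mouse pre-osteoblast culture. They were taken by symbol from the 56691 rows of the gene count table, and all 9 were found there. 6 of the 9 (C3, Cfb, C1ra, C1s1, Serping1 and Masp1) had enough counts to be tested, and C4b, Cfd and Cd55 were too rare. In the mouse annotation GENCODE M21 (GRCm38), C3, C4b and Cfb lie on chromosome 17, C1ra and C1s1 on 6, Cfd on 10, Serping1 on 2, Masp1 on 16 and Cd55 on 1.

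Complement is a cascade of plasma and tissue proteins that marks surfaces and cells for uptake or lysis. The classical pathway starts when C1q engages the proteases C1r and C1s, the lectin pathway uses the MASP proteases, and the alternative pathway is driven by factor B and factor D. All of them meet at the cleavage of C3, and inhibitors such as C1 inhibitor (Serping1) and CD55 restrain the cascade. Liver makes most plasma complement, while stromal cells, osteoblasts among them, also make components locally, and C3 was described early as a vitamin D-responsive product of bone stromal and osteoblastic cells.

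The cells were MC3T3-E1, a clonal wild-type line from mouse calvarial bone, so every library came from the same line. They were held for 28 days in osteogenic medium that all 4 groups share, containing 0.1 µM dexamethasone, 50 µg/ml ascorbic acid and, as a source of phosphate, β-glycerophosphate (BGP) at 10 mM. From day 27, for 24 hours, 3 samples received 25-hydroxyvitamin D (25(OH)D), 3 received 25(OH)D with a further 4 mM BGP, 3 received 25(OH)D with 100 µM ZK191784, a vitamin D receptor ligand used as an antagonist, and 3 are labelled control. 25(OH)D is labelled 100 µM in each treated group, a unit that could not be checked. The control's vehicle is not stated, and no group received ZK191784 or the added BGP without 25(OH)D. RNA was read with QuantSeq, which counts tags near the 3' ends of transcripts.

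Library totals ran from 3318723 to 5170980 counts. All 8 osteoblast lineage markers had 10 counts or more in every group. Their summed level was 102502 to 126482 CPM (counts scaled to a common library total) in control libraries, 18324 to 19989 with 25(OH)D, 15048 to 18922 with added BGP and 56915 to 60960 with ZK191784. The sum rests mostly on Sparc, Col1a1 and Ibsp, and the markers did not all go one way: Alpl rose with 25(OH)D (log2 fold change 0.93, edgeR adjusted p = 0.0138), and Sp7 (-0.47) and Dmp1 (0.29) were not called. Some leukocyte markers were also present: the 8 listed summed to 385 to 823 CPM in control and 317 to 651 CPM with 25(OH)D, ranges that overlap. This sum rests mostly on Ptprc (125 to 327 CPM over all libraries) and Laptm5 (113 to 351 CPM). Csf1r (0.642 to 3.09 CPM), Adgre1 (0.193 to 4.08 CPM) and Cd14 (0.723 to 5.65 CPM) were rare. Of the hepatocyte markers, Alb, Ttr, Ahsg and Serpina1a had 0 counts in every library. The part of these cell type markers in the results was not tested. Libraries of 1 group also differed among themselves: the first component of the within-group spread held 58.9% of the variance and the next 7.5%. Beside the results that vary inside groups, 1 ratio per library is given, ribosomal protein counts over counts of ribosomal protein pseudogenes and unnamed (Gm) genes. It is made from the same counts, and within groups its correlation with the first component was 0.98 in absolute value. The labels name no separate cultures behind the replicates, so p-values measure the spread between these libraries, which may be technical.

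The C3 promoter is shown first because C3 had the largest differences among the members, with the C1ra and C1s1 promoters beside it because these neighbouring genes varied together. RefSeq windows (GRCm38.p6) were matched for 5 of the 9 members: C3, Cfd, C1ra, C1s1 and Cd55. C4b, Cfb, Serping1 and Masp1 were not matched. Each sequence is the 250 bases before the start, 5′ to 3′. Capitals mark matches, on either strand, to the C/EBP motif TTNNGNAA or the NF-kB motif GGGNNNNNCC, 2 motifs linked to inflammatory control of complement genes.
C3 promoter, chr17:57228137-57228386 (- strand): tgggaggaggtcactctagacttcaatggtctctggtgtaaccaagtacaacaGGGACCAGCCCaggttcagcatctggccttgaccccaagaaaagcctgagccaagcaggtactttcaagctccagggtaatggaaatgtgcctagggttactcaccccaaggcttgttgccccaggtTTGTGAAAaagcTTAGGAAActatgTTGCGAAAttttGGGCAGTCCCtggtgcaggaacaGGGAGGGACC
C1ra promoter, chr6:124512371-124512620 (+ strand): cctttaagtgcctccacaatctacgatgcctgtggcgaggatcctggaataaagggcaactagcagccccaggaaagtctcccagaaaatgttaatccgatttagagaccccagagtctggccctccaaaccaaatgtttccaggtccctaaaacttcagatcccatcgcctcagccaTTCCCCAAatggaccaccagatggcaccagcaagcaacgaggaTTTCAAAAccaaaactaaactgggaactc
C1s1 promoter, chr6:124542360-124542609 (- strand): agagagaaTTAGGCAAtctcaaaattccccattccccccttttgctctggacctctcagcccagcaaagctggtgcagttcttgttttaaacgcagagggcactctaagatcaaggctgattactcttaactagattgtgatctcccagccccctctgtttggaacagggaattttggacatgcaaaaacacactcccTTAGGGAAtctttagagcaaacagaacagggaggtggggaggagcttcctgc

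In C3 the C/EBP letters occur at 3 positions, 70 to 63, 58 to 51 and 45 to 38 bases before the start, the last of them on both strands. The NF-kB letters begin 197, 33 and 10 bases before the start, and the first of these overlaps a match on the other strand at 196. C1ra has C/EBP letters beginning 72 and 29 bases before its start, and C1s1 has them at 242 and 52. RefSeq gives C1s1 another start, whose window holds the nearer of these C/EBP matches, at 90, and NF-kB letters at 35. A C/EBP match was present in 36.8% of 32851 mouse windows of this length, and 3 or more positions in 2.61%. An NF-kB match was present in 45.8%, and 3 or more positions in 10.7%. The Cfd and Cd55 windows held NF-kB letters and no C/EBP letters. No member window held the STAT motif TTCNNNGAA (7.02% of all windows), the interferon response motif GAAANNGAAA (2.98%), the glucocorticoid response element (0.0396%) or a vitamin D response element, searched as direct repeats spaced by 3 bases (0.0304%). These are letters in a short window and say nothing of binding.

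With 25(OH)D, C3 and Serping1 were higher and Masp1 was lower than in control, and the remaining tested members passed in neither direction. No member was called between 25(OH)D with and without added BGP. With ZK191784 beside 25(OH)D, C3 was far lower and Masp1 higher than with 25(OH)D alone. In this edgeR quasi-likelihood test, with Benjamini-Hochberg adjustment over 14394 genes and a call at an adjusted p under 0.05, 2 of the 6 tested members rose with 25(OH)D and 1 fell, where 4.76% of all genes rose and 3.93% fell. With BGP added to 25(OH)D, 0 of 6 were called in either direction, and 0% of all genes rose or fell (268 genes had an unadjusted p under 0.05, and DESeq2 also called 0). With ZK191784 added to 25(OH)D, 1 of 6 rose and 1 fell, against 1.42% and 2.11% of all genes.

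Against control, 25(OH)D with BGP gave 2 members higher and 1 lower, where 3.9% of genes rose and 4.35% fell. 25(OH)D with ZK191784 gave 1 member higher and 0 lower than control, where 0.507% of genes rose and 0.215% fell. The median log2 fold change of the 6 tested members was 0.72 for 25(OH)D against control (all genes, -0.05), -0.33 for added BGP (-0.02) and -0.24 for added ZK191784 (0.02). These comparisons share the control or the 25(OH)D libraries, so their values are set side by side and are not independent. The members were chosen with earlier results of these data known, and Cfb entered the test through libraries where it was high. The medians and the shares called therefore describe this list and are no test of it. In bulk RNA, fewer cells of a type and less RNA per cell cannot be told apart.

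**Figure D1:**
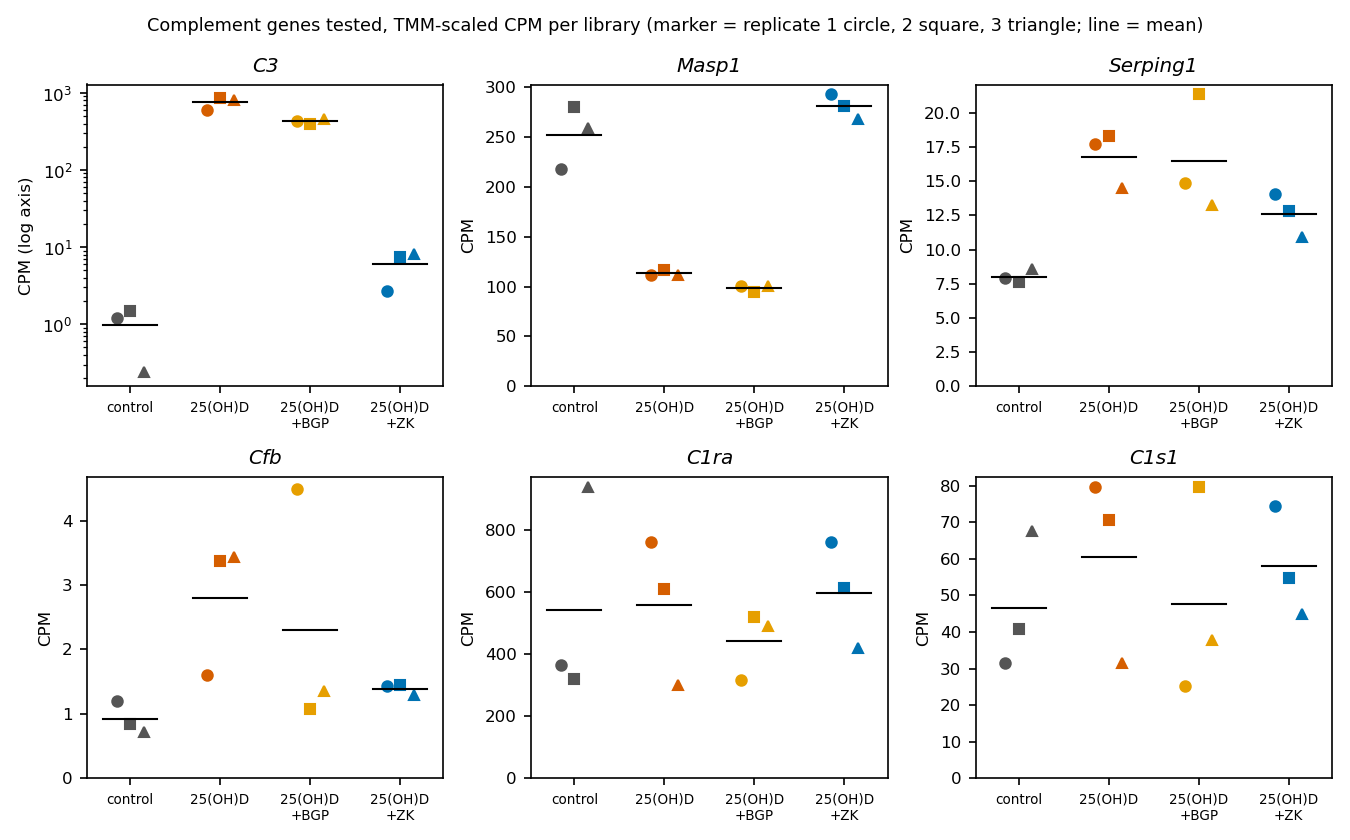
CPM, scaled by the trimmed mean of M values (TMM), of the 6 tested complement genes in each of the 12 libraries, by group; points are libraries (circle, square and triangle for replicates 1, 2 and 3) and lines are group means, and the C3 axis is logarithmic. C3 sits at 593 to 851 CPM with 25(OH)D and at 0.238 to 1.48 CPM in control, while Masp1 spans 112 to 117 CPM with 25(OH)D and 218 to 293 CPM over the control and ZK191784 libraries.

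C3 is the central component, cleaved by every pathway into the C3b that tags surfaces and the C3a that signals to cells. In control libraries 1, 2 and 3 it measured 1.2, 1.48 and 0.238 CPM, from 5, 7 and 1 counts. With 25(OH)D it measured 593, 851 and 806 CPM, from 2217, 3529 and 3053 counts. The lowest 25(OH)D library thus lay far above the highest control library. The group means were 0.971 ± 0.65 and 750 ± 138 CPM (SD, n = 3 each), a fitted log2 fold change of 9.53 ± 0.49 (SE; 739-fold) with an adjusted p of 1.80e-07 by edgeR's quasi-likelihood test. Since the control level rests on 13 counts in all, the size of the fold is less sure than its direction: it ranged from 9.11 to 9.98 when each library was left out in turn.

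With BGP added to 25(OH)D, C3 measured 433, 390 and 451 CPM, a mean of 425 ± 31.2 CPM (SD, n = 3). All 3 libraries were below the 3 libraries with 25(OH)D alone. The fitted log2 difference was -0.82 ± 0.31 (SE) with an unadjusted p of 0.0213 and an adjusted p of 1 by edgeR's quasi-likelihood test, so it was not called. In an edgeR fit that also held the library ratio, the difference was -0.79 ± 0.13 and was called (adjusted p = 0.005), 1 of 6 genes (0.0417% of those tested) called there. C3 itself was highest in the library with the highest ratio in 0 of 4 groups, and in every group it was lowest there. These libraries were control 3 (0.238 CPM), 25(OH)D 1 (593 CPM), added BGP 2 (390 CPM) and ZK191784 1 (2.66 CPM). Against control, C3 with BGP was higher by 8.71 ± 0.48 on the log2 scale (418-fold, adjusted p = 2.94e-07).

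With ZK191784 beside 25(OH)D, C3 measured 2.66, 7.47 and 8.26 CPM, from 13, 31 and 38 counts, a mean of 6.13 ± 3.03 CPM (SD, n = 3). This is far below 25(OH)D alone, and all 3 libraries still lay above every control library. C3 was lower than with 25(OH)D by a log2 fold change of -6.94 ± 0.41 (SE; 123-fold) with an adjusted p of 2.64e-06 by edgeR's quasi-likelihood test. Against control it was higher by 2.59 ± 0.49 (6.03-fold, adjusted p = 0.0306). That call rests on few counts and was lost when the 2 groups were fitted alone (adjusted p = 0.285), with a replicate block (0.0888), and without any 1 of the control libraries (0.121, 0.0772 and 0.0666 without 1, 2 and 3) or without ZK191784 library 2 or 3 (0.15 and 0.129).

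Factor B (Cfb) and factor D (Cfd) build the alternative pathway convertase: factor B binds C3b and factor D cleaves it. Cfb was rare. It measured 1.2, 0.843 and 0.714 CPM in control (5, 4 and 3 counts), 1.6, 3.37 and 3.43 CPM with 25(OH)D (6, 14 and 13 counts), 4.49, 1.07 and 1.35 CPM with added BGP, and 1.43, 1.45 and 1.3 CPM with ZK191784. All 3 libraries with 25(OH)D were above all 3 controls, but the edgeR log2 fold change of 1.59 ± 0.62 (SE) did not pass (adjusted p = 0.165), and it passed only with the library ratio as covariate (1.8 ± 0.62, adjusted p = 0.0357), where 19.8% of all genes were called. Added ZK191784 gave -1.0 ± 0.59 (adjusted p = 0.63) and added BGP -0.34 ± 0.57 (adjusted p = 1). The 3 libraries that reached 10 counts were 2 with 25(OH)D and 1 with added BGP, so Cfb entered the test through libraries where it was high.

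Cfd, which is also a main product of adipocytes under the name adipsin, had 15 counts over all 12 libraries. Control libraries held 0, 4 and 3 counts, 25(OH)D libraries 0, 0 and 1, libraries with added BGP 1, 3 and 2, and libraries with ZK191784 0, 1 and 0. The sum with 25(OH)D was 1 count against 7 in control, a ratio scaled for depth of 0.161 (95% exact interval 0.00356 to 1.25; exact permutation p = 0.4). With added BGP the sum was 6 against 1, a ratio of 5.22 (0.633 to 240); the groups did not overlap, and the exact p of 0.1 is the smallest that 3 against 3 libraries allow. With 3 libraries per group this exact test cannot give a p under 0.05 at any depth. It therefore cannot decide whether Cfd differed. The adipocyte markers summed to 7.8 to 9.28 CPM in control and 1.32 to 6.15 CPM with 25(OH)D. With added BGP the sum was 3.09 to 3.86 CPM, and with ZK191784 it was 6.75 to 9.42 CPM. Of these markers Fabp4 alone had enough counts to be tested (0.241 to 8.09 CPM over all libraries). It was lower with 25(OH)D than in control (edgeR log2 fold change -2.72, adjusted p = 0.0222). The part of the adipocyte markers in the Cfd counts was not tested.

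C1ra and C1s1 encode C1r and C1s, the serine proteases of the C1 complex, and lie side by side on chromosome 6 in opposite orientations. C1ra measured 366, 320 and 939 CPM in control libraries, 761, 611 and 299 with 25(OH)D, 318, 521 and 491 with added BGP, and 761, 612 and 419 with ZK191784. C1s1 measured 31.4, 40.9 and 67.6 CPM in control libraries, 79.7, 70.6 and 31.4 with 25(OH)D, 25.2, 79.6 and 37.8 with added BGP, and 74.5, 54.7 and 45 with ZK191784. For both genes the groups overlapped throughout, and the spread inside a group, up to 2.93-fold for C1ra and 3.15-fold for C1s1, was larger than any difference between group means. With 25(OH)D the edgeR log2 fold changes were 0.04 ± 0.42 (SE, adjusted p = 0.971) for C1ra and 0.38 ± 0.44 (adjusted p = 0.69) for C1s1, and none of the 5 comparisons called either gene.

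The 2 genes moved together from library to library. After each gene was centred on its own mean, their log2 CPM differed by a root mean square of 0.30 over the 12 libraries, the closest of the 15 pairs among tested members. Both were highest in the library with the highest ribosomal ratio in 4 of 4 groups. On the log2 scale the ratio ran from -1.78 to -0.57 in control, from -1.75 to -0.44 with 25(OH)D, from -1.65 to -0.44 with added BGP and over a narrower span, -1.57 to -0.78, with ZK191784. With that ratio in the model the SE of the C1ra difference fell from 0.42 to 0.13, and its 25(OH)D difference from control was -0.11 (adjusted p = 0.637). In the same fit C1ra with 25(OH)D and BGP was lower than control by a log2 fold change of -0.41 ± 0.13 (edgeR, adjusted p = 0.0254), where 18.6% of genes were called, while C1s1 was not called in any comparison. What sets the ratio was not tested.

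**Figure D2:**
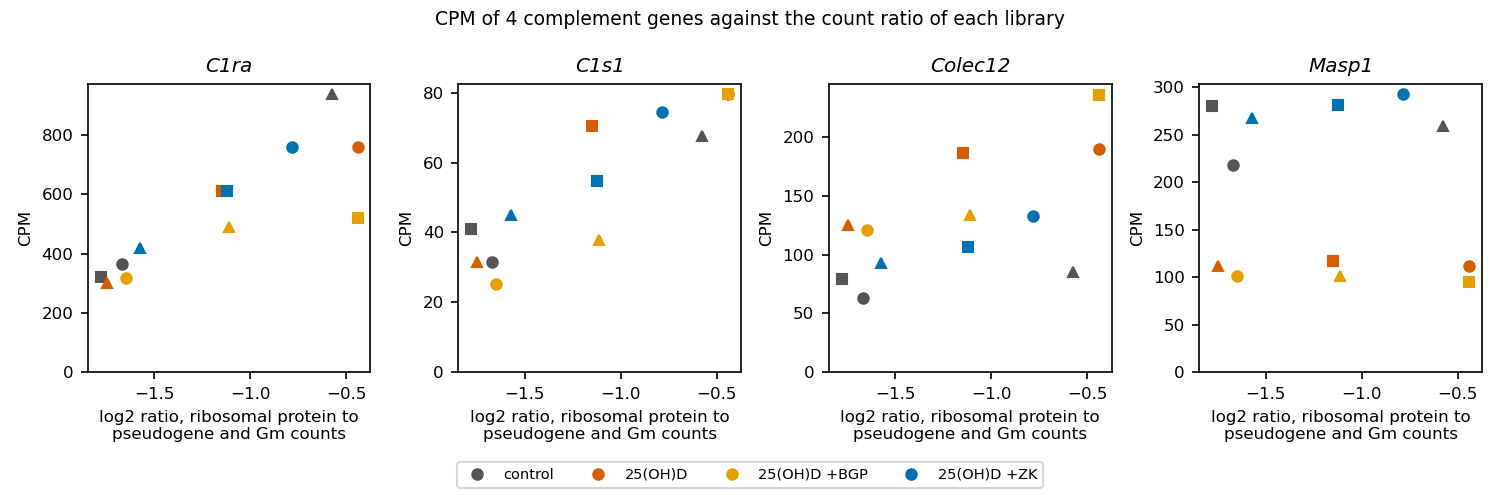
CPM of C1ra, C1s1, Colec12 (a membrane collectin) and Masp1 in each of the 12 libraries against the library's log2 ratio of ribosomal protein counts to pseudogene and Gm counts; colours are groups and marker shapes are replicates. C1ra, C1s1 and Colec12 are highest at the right end in every group, and Masp1 stays within 112 to 117 CPM in the 25(OH)D libraries across the ratio.

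C4b encodes C4, the substrate that C1s and MASP-2 cleave. It was barely counted: 1, 8 and 1 counts in control libraries, 2, 0 and 1 with 25(OH)D, 1, 1 and 3 with added BGP, and 4, 3 and 2 with ZK191784. The 3 counts with 25(OH)D against 10 in control gave a ratio of 0.337 (95% exact interval 0.0597 to 1.31; exact permutation p = 0.7), and 8 of those 10 came from control library 2. Its near-identical copy C4a held 0 to 8 counts per library, and reads between the copies may have been split in the authors' counting. C4a went the other way with 25(OH)D, 10 counts against 4 in control, a ratio of 2.81 (0.811 to 12.3). With ZK191784 it held 17 counts, a ratio to control of 4.09 (1.33 to 16.7). In both cases the groups did not overlap, and the exact permutation p was 0.1, the smallest possible. Of the copies of other members, C1rb was tested at 1.43 to 4.82 CPM and not called, C1s2 held 0 to 3 counts and Cd55b held 0. The last 300 bases of the C1s1 transcript (GENCODE M21) match the whole C1s2 transcript with 96.3% identity over 242 aligned bases. Aligned end to end, the last 300 bases of both transcripts are 64.9% identical. Tags from the C1s1 end may thus be shared with C1s2, and C1s1 values are uncertain to that extent.

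Masp1 encodes proteases of the lectin pathway: MASP-1, which activates MASP-2, and, by alternative splicing, MASP-3, which activates factor D. The table pools these products under 1 symbol. Masp1 measured 218, 280 and 259 CPM in control and 112, 117 and 112 CPM with 25(OH)D. The group means were 252 ± 31.8 and 114 ± 2.91 CPM (SD, n = 3 each), and the groups were well apart. The edgeR log2 fold change was -1.15 ± 0.13 (SE; 2.22-fold lower) with an adjusted p of 8.32e-05, and it was called under every alternative tried.

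With added BGP, Masp1 measured 101, 94.4 and 101 CPM. All 3 were below all 3 with 25(OH)D alone, and the log2 difference of -0.20 ± 0.13 was not called (edgeR, adjusted p = 1). With ZK191784 Masp1 measured 293, 281 and 268 CPM, above 25(OH)D alone in 3 of 3 libraries by a log2 fold change of 1.30 ± 0.13 (2.47-fold, edgeR adjusted p = 9.07e-05). Against control the ZK191784 group differed by 0.15 ± 0.12 and was not called (adjusted p = 0.998). Its 25(OH)D values stayed between 112 and 117 CPM in libraries of high and low ribosomal ratio. Rtp4, which the GENCODE M21 annotation places over Masp1, held 14 to 38 counts per library, Gm45338, also over Masp1, held 5 to 74, and the strand setting of the counting is not given in the sources used here.

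Serping1 encodes C1 inhibitor, the serpin that inactivates C1r, C1s and the MASP proteases. It measured 7.91, 7.59 and 8.56 CPM in control and 17.7, 18.3 and 14.5 CPM with 25(OH)D, with no overlap. The means were 8.02 ± 0.497 and 16.8 ± 2.03 CPM (SD, n = 3 each), and the edgeR log2 fold change was 1.07 ± 0.24 (SE; 2.1-fold) with an adjusted p of 0.0147. The direction held without any 1 library, but the call was lost without control library 1 or 2 (adjusted p = 0.054 and 0.0575), without 25(OH)D library 1 or 2 (0.0553 and 0.0586), and with the 2 groups fitted alone (0.056).

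With added BGP Serping1 measured 14.9, 21.4 and 13.3 CPM, overlapping 25(OH)D alone, with a log2 difference of -0.03 ± 0.23. It was higher than control by 1.04 ± 0.24 (edgeR, adjusted p = 0.0173). This call was lost without control library 1 or 2 (0.0606 and 0.0607), without library 2 of the BGP group (0.0745) and with the 2 groups alone (0.0846). With ZK191784 it measured 14.1, 12.8 and 10.9 CPM, each below all 3 libraries with 25(OH)D and above all 3 controls. The mean of 12.6 ± 1.64 CPM lay between them, and neither difference passed: -0.42 ± 0.24 against 25(OH)D (adjusted p = 0.599) and 0.65 ± 0.24 against control (adjusted p = 0.523).

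CD55 (Cd55), the membrane protein that hastens decay of the C3 convertases, was also rare. It held 0, 1 and 4 counts in control libraries, 2, 2 and 3 with 25(OH)D, 2, 2 and 1 with added BGP, and 0, 0 and 8 with ZK191784. Gm16083, which overlaps Cd55, held 15 counts over all libraries against 25 for Cd55. The 7 counts with 25(OH)D against 5 in control gave a ratio of 1.57 (95% exact interval 0.43 to 6.29; exact permutation p = 0.5). Without the low-count filter, which lets the 3 rare members into the edgeR fit, 0 of their 15 comparisons was called, with a lowest adjusted p of 0.705. Intervals cover counting error only.

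**Figure D3:**
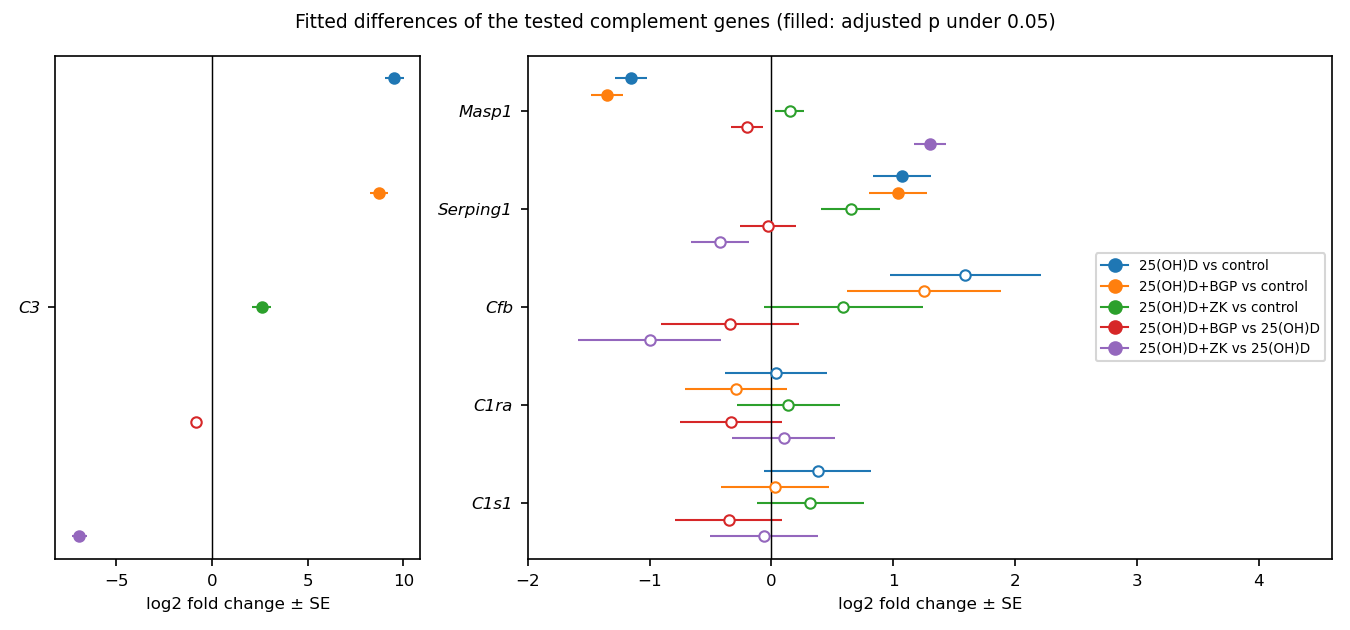
Fitted log2 fold changes ± SE of the 6 tested complement genes in 5 comparisons (colours), with C3 on its own axis and filled points where the adjusted p was under 0.05; ZK is ZK191784. C3 and Masp1 lie on opposite sides of 0 for 25(OH)D against control and again for ZK191784 added to 25(OH)D, and no point of C1ra or C1s1 is filled.

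A list of 47 other complement genes was read in the same fit; 18 were tested and 29 were too rare. 2 rose and 1 fell with 25(OH)D against control, where 4.76% of all genes rose and 3.93% fell; the median log2 fold change was -0.08 over the 18 and -0.05 over all genes. For added BGP, edgeR and DESeq2 called 0 of the 18, and 0 had an unadjusted p under 0.05. For added ZK191784, edgeR called 0, with 3 at an unadjusted p under 0.05 (Cd59a, Vtn and Colec12), and DESeq2 called 1, Cd59a. The gene that fell was Cd59a, an inhibitor that blocks the membrane attack complex. It measured 11.7, 13.9 and 26.9 CPM in control and 1.87, 3.37 and 0.528 CPM with 25(OH)D, a log2 fold change of -3.15 ± 0.62 (SE, edgeR adjusted p = 0.00604); without 25(OH)D library 2 it was -3.83. With ZK191784 it measured 15.4, 8.2 and 4.13 CPM, above every 25(OH)D library, with 2.23 ± 0.62 against 25(OH)D and an adjusted p of 0.0827 in edgeR (0.0112 in DESeq2); leaving out each library gave 1.65 to 2.92.

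The other complement genes that rose were Colec12, a membrane collectin, and Vtn, vitronectin, which binds the terminal complex. Colec12 went from 76 ± 11.6 CPM in control to 167 ± 36.2 CPM with 25(OH)D (SD, n = 3 each; edgeR log2 fold change 1.14 ± 0.26, adjusted p = 0.0154). Vtn held 0, 1 and 3 counts in control and 10, 11 and 10 with 25(OH)D (3.0 ± 0.73, adjusted p = 0.0213). Only libraries with 25(OH)D, with or without added BGP, reached 10 Vtn counts, so it entered the test through the groups where it was high. Without control library 3 its log2 fold change was 4.27. Both calls ended when control library 1 or 2 was left out (0.0747 and 0.0507 for Colec12, 0.0653 and 0.095 for Vtn) and when 25(OH)D library 1 or 2 was (0.0636 and 0.0596 for Colec12, 0.0557 and 0.0629 for Vtn). The Vtn call was also lost with the 2 groups alone (0.0759). Genes for other steps of the cascade were barely counted. The 3 C1q subunit genes held 4 counts over all libraries, Masp2 held 1, and the 7 genes of the terminal pathway 2 to 37 per library in sum. C1qb, C8b, Cd55b and Cd59b had 0 counts everywhere.

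**Figure D4:**
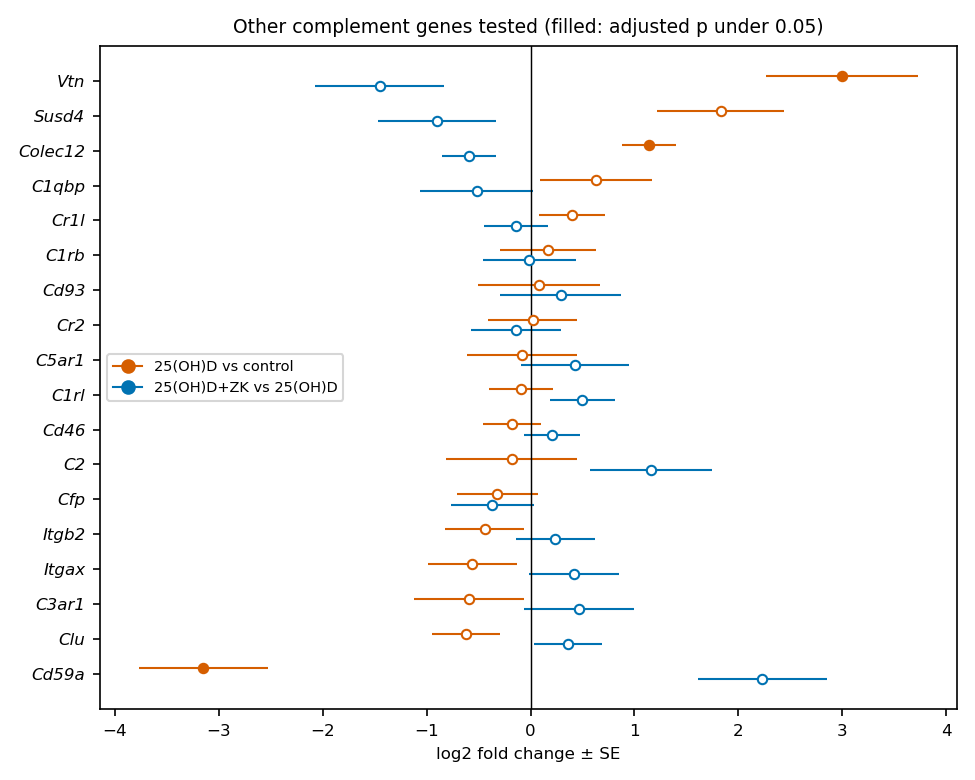
Fitted log2 fold changes ± SE of the 18 other complement genes tested, for 25(OH)D against control (orange) and for ZK191784 (ZK) added to 25(OH)D (blue); filled points passed an adjusted p under 0.05. Vtn and Colec12 are filled to the right of 0 and Cd59a to the left for 25(OH)D, and no blue point is filled.

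Of 24 inflammatory regulators, 21 were tested, and 3 rose and 1 fell with 25(OH)D, where 4.76% of all genes rose and 3.93% fell. Cebpb, a C/EBP factor known to act on the C3 promoter in other cells, rose from a mean of 439 to 1494 CPM (log2 fold change 1.77 ± 0.14). The interleukin-6 receptor chains rose too, Il6ra from 8.09 to 31.5 CPM (1.96 ± 0.34, adjusted p = 0.00247) and Il6st from 103 to 274 CPM (1.4 ± 0.16, adjusted p = 0.00012). Il1r1, the interleukin-1 receptor, fell from 9.38 to 4.02 CPM (edgeR, -1.22 ± 0.28, adjusted p = 0.0165), a call that ended when the filter (0.122), control library 1 (0.0708) or either of the first 25(OH)D libraries (0.0694 and 0.0565 for 1 and 2) was left out, or the 2 groups were fitted alone (0.0849). With ZK191784, Cebpb (-1.1 ± 0.13, adjusted p = 0.000523) and Il6st (-0.92 ± 0.16, adjusted p = 0.00576) were lower than with 25(OH)D alone, where 2.11% of all genes fell. Cebpb was still higher than in control (0.66 ± 0.13, edgeR adjusted p = 0.0421). Il6ra, at a mean of 23.3 CPM with ZK191784, was not called against 25(OH)D alone (-0.43 ± 0.32, edgeR adjusted p = 0.764). Il6, whose receptor Il6ra and Il6st form, and Ifng held 0 to 1 counts and Osm held 0 to 8 per library. The link of any of these to the complement genes was not tested.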

How the data were processed

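The files hold whole-number counts per gene symbol, deposited as 1 table of 12 libraries. Per the submitters' processing notes, the tools named are STAR 2.7.9a, featureCounts of Subread 2.0.3 and DESeq2 1.38.2, with the genome build mm39; the sources used here give neither strand setting nor annotation. Libraries were grouped by their titles. Counts were scaled by TMM in edgeR 4.0.16 (R 4.3.3), filtered with filterByExpr at a minimum count of 10, which left 14394 of 56691 rows, and tested with glmQLFit and glmQLFTest over all 12 libraries, with 8 residual degrees of freedom and Benjamini-Hochberg adjustment over all tested genes. Rare members were compared by summed counts with 95% exact binomial intervals and an exact two-sided permutation test on CPM. The edgeR test was also run on simulated counts, with genes drawn independently and no spread shared by the genes of a library. How the test behaves with the within-group component seen here was therefore not checked. DESeq2 1.42.0, RLE normalization, no filter, a filter of 2 CPM in 3 libraries, a replicate term, a library-ratio covariate, 2 groups alone and leaving out each library were alternatives. Named genes were all members, their copies, the called genes and the genes at 0 counts of the list of other complement genes, the called genes of the list of inflammatory regulators, and the 2 genes with the most similar pattern to each called member. Complement receptors, Masp2, Il6, Ifng, Osm, the overlapping genes and the named cell type markers fall outside this rule and were named after their values were seen. Members and lists were chosen with earlier results of these data known. Replicate libraries were not identical. Promoter sequences come from RefSeq (GRCm38.p6), and gene neighbours from GENCODE M21 on GRCm38, another build than the counts, used for names and overlaps only. Protein sequences were not used here. The smallest p that 3 against 3 libraries can give in the exact test is 0.1. 882 rows repeat a symbol. Some genes of the list of other complement genes are not reported here.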

Additional observations from a re-analysis of the deposited data

How the results depend on the processing

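Across 5 comparisons, the 6 tested members gave 30 fitted differences and 386 alternative values: 342 kept direction and side of the threshold, 16 lost the call, 3 gained it and 25 reversed, none of the reversed ones with a call. Counts of genes called depended most on the library ratio: with it as a covariate they were 2850 (main 1250) for 25(OH)D against control, 6 (0) for added BGP, 1638 (508) for added ZK191784, 2680 (1187) for 25(OH)D with BGP against control and 671 (104) for 25(OH)D with ZK191784 against control. With the 2 groups alone they were 763, 712 and 42 for the comparisons of 25(OH)D, 25(OH)D with BGP and 25(OH)D with ZK191784 against control. DESeq2 gave 797 for added ZK191784 and 264 for 25(OH)D with ZK191784 against control, where omitting the filter gave 220. Leaving out 1 library gave 813 to 1266 for 25(OH)D against control, 269 to 428 for added ZK191784, 794 to 1143 for 25(OH)D with BGP against control and 34 to 119 for 25(OH)D with ZK191784 against control. The replicate numbers of the labels were not taken to pair the libraries, since in no comparison did all 3 same-numbered pairs correlate above 0.1: correlations were -0.525, -0.066 and -0.706 for 25(OH)D against control, -0.602, 0.213 and 0.042 for added BGP, 0.557, -0.344 and 0.012 for 25(OH)D with BGP against control and -0.554, -0.032 and -0.634 for 25(OH)D with ZK191784 against control. For added ZK191784 they were 0.55, 0.005 and 0.612, and there each library correlated best with its own number, a hint from the data and not from the design. With a replicate block the counts were 334 for added ZK191784 and 56 for 25(OH)D with ZK191784 against control, and 0 members were called in the latter.

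Members called were 1 for added BGP with the covariate, 0 for 25(OH)D with ZK191784 against control with the 2 groups alone, and 0 to 1 there without 1 library; without 1 library they were 2 to 3 for 25(OH)D, with or without BGP, against control. Other complement genes called for 25(OH)D against control (main 3) were 5 with the covariate and 1 to 3 without 1 library. For added ZK191784 (main 0) they were 1 with DESeq2, 1 without the filter and 3 with the covariate. For 25(OH)D with BGP against control (main 3) they were 5 with the covariate and 2 to 3 without 1 library, and for 25(OH)D with ZK191784 (main 0) 1 with the covariate.

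Reversed log2 differences were not called. With the covariate, C1ra was -0.11 for 25(OH)D against control, and C1s1 was 0.04 for added ZK191784 and -0.31 for 25(OH)D with BGP against control (-0.06 with a replicate block). Without 1 library, C1ra ranged from -0.26 to 0.71 for 25(OH)D against control, -0.20 to 0.39 for added ZK191784, -0.56 to 0.39 for 25(OH)D with BGP against control and -0.14 to 0.82 for 25(OH)D with ZK191784 against control. C1s1 ranged from -0.37 to 0.19 for added ZK191784 and -0.53 to 0.41 for 25(OH)D with BGP against control. For added BGP, Cfb ranged from -1.19 to 0.02 and Serping1 from -0.24 to 0.11. The cause was not tested. Depth limits C4b, Cfd, Cd55 and Cfb, and C3 in control.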

Other observations

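Receptors for complement fragments were present and did not pass the test. C3ar1, the C3a receptor, measured 21.6, 17.9 and 9.04 CPM in control and 6.15, 8.92 and 17.2 CPM with 25(OH)D (edgeR log2 fold change -0.59 ± 0.53, adjusted p = 0.602), and the groups overlapped. C5ar1, the C5a receptor, had means of 6.17 ± 0.196 and 5.83 ± 2.66 CPM (SD, n = 3 each). Itgb2 is the shared chain of the leukocyte complement receptors. It measured 108, 77.1 and 45.9 CPM in control and 39.8, 48.9 and 81.9 CPM with 25(OH)D (edgeR adjusted p = 0.592). Of its partners, Itgam held 3 counts over all libraries. Itgax was counted more, with means of 20 ± 12.5 CPM in control and 13.5 ± 4.61 CPM with 25(OH)D (edgeR adjusted p = 0.531). Cr1l, a membrane regulator of C3b, had means of 40.9 ± 15.2 and 54 ± 14.1 CPM (adjusted p = 0.551). These receptors were named after their values were seen.

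The genes whose pattern over the 12 libraries was most like that of each called member were found by the root mean square difference of centred log2 CPM among 11322 genes. For C3 they were Gprc5a (1.31), at mean levels of 4.11, 312, 253 and 10.5 CPM in control, 25(OH)D, added BGP and ZK191784, and Lrtm2 (1.47). For Serping1 they were Suox and Cpt1a (0.10 each). For Masp1 they were Lmo7 (0.13) and Runx2 (0.18), the latter, an osteoblast transcription factor, at 175, 83.2, 70.2 and 159 CPM.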
